A study of Homo sapiens with 12 samples.

Results

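The DEAD and DEAH box proteins are ATP-driven RNA helicases, named after the letters of a conserved motif in their ATP-binding core. Genes were taken by name: every symbol made of DDX or DHX, a number and at most 1 letter, in the deposited table of differential m6A peaks or in either deposited peak list. Y-linked genes were left out. The selection gave 48 genes of 19340 labelled genes. In the control list 45 of them had a peak, in the knockdown list 42, and 21 had at least 1 differential peak. The study used HGC27, a gastric carcinoma cell line of human origin that has long been in culture, and compared FTO knockdown (genotype label FTO-KO, libraries sh1 to sh3) with control cells (WT, libraries Con1 to Con3). FTO is a demethylase that erases N6-methyladenosine (m6A) from RNA. Each condition had 3 libraries of fragments pulled down with an antibody to m6A and 3 input libraries of the same kind of poly(A) RNA without pulldown, 12 in all. The labels do not say whether the numbers stand for separate cultures or, in the knockdown, for different hairpins, so the p-values below speak only of the spread among libraries, which may be technical.

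DEAD box proteins clamp onto short stretches of RNA and pull the strands apart locally, while most DEAH box proteins travel along RNA and displace what is bound to it. Members drive the rearrangements of the spliceosome, unfold precursor ribosomal RNA in the nucleolus, export and translate mRNA, hold mRNA in storage or send it to decay, and sense viral RNA. m6A is placed mostly in long exons and near stop codons, and methylated mRNA can be bound by proteins that change its splicing, translation or decay.

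FTO itself stood at 5.48, 5.68 and 5.52 FPKM (fragments scaled to transcript length and to the library's mapped fragments) in the control inputs and at 0.786, 0.830 and 0.765 in the knockdown inputs, 7.00-fold lower on means (limma adjusted p = 4.99e-07). Correlations between input libraries were 0.9877 to 0.9923 within a condition and 0.9583 to 0.9689 between conditions. FPKM were given only for genes with a differential peak, and read depth is unknown. None of the 6 epithelial markers had an FPKM value, so the label of the line could not be checked at the RNA level; of the other markers only 3 had one. COL1A1 (mesenchymal) fell from 169 to 147 FPKM on means (limma adjusted p = 0.0108), THY1 (mesenchymal) rose from 12.5 to 15 (adjusted p = 0.00318), and MUC1 (gastric) was at 1.24 and 1.43 (adjusted p = 0.196).

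The helicase RNAs were mostly higher after FTO knockdown. Of 21 members with FPKM values, 15 rose (71.4%), 2 fell (9.52%) and 4 were not called, by limma on log2(FPKM + 1) at an adjusted p under 0.05 over 4515 genes. Over all genes tested 24.5% rose and 37.9% fell (1107 and 1712 genes). That split depended on the scaling: quantile normalization gave 1425 and 1291 genes and median-centring 1507 and 1213, while the members stood at 15 and 2 and at 17 and 1. It also depended on the level: with a mean of at least 5 FPKM, 830 of 2390 genes rose (34.7%) and 773 fell. Of the 16 members at that level, 13 rose and 1 fell. In the main fit, the median change of the members was 0.25 on the log2 scale, beside -0.07 for all genes tested. At 5 FPKM or more these medians were 0.257 and 0.004. All 3 knockdown libraries lay above all 3 controls for 15 members, against 27.3% of all genes, and below them for 2, against 40.5%. In bulk RNA, a change in RNA per cell and a change in which cells are present cannot be told apart.

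**Figure D1:**
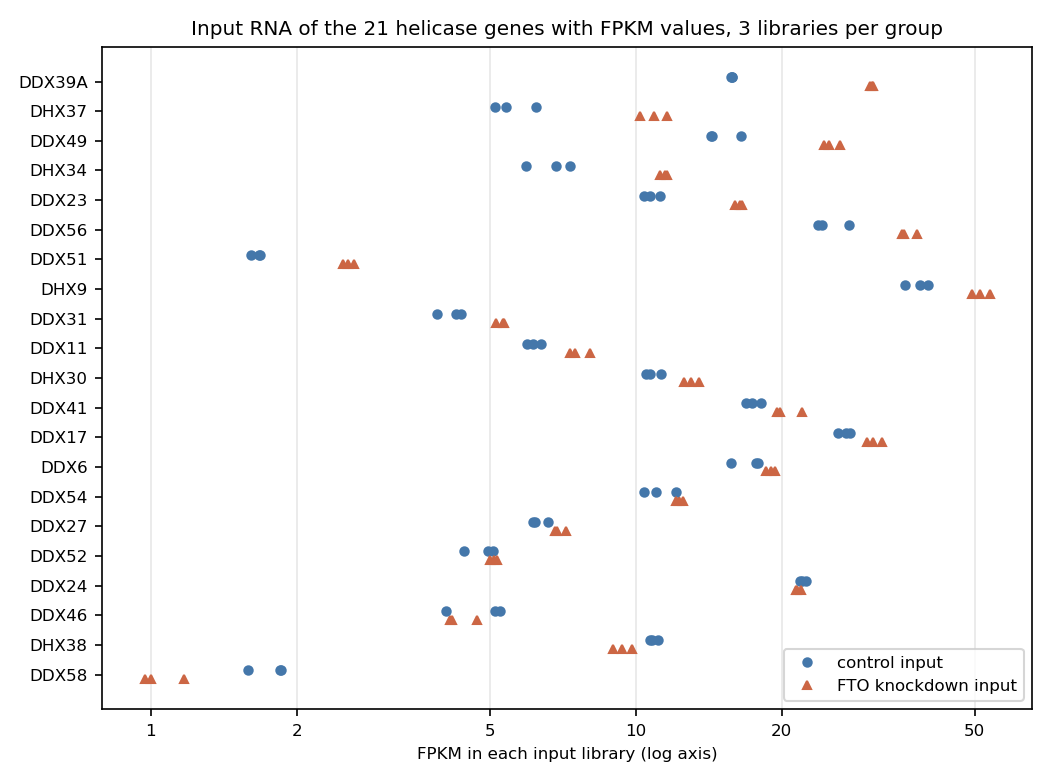
FPKM in each of the 6 input libraries (log axis) for the 21 helicase genes that have values, ordered by their change; circles are control and triangles FTO knockdown libraries. The 2 groups do not overlap for 17 genes, and DDX39A has the widest separation for its spread, near 15.8 against 30.6 FPKM.

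Among splicing helicases, 5 of the 7 with values rose and 1 fell. DDX39A, an mRNA export and splicing factor closely related to DDX39B, was at 15.7, 15.8 and 15.8 FPKM in controls and at 30.7, 30.4 and 30.9 after knockdown. The libraries of each group differed by less than 1 FPKM, and the rise, in log2(FPKM + 1) units, was 0.91 (SE 0.0340, limma adjusted p = 2.11e-06). DDX23, a component of the U5 small nuclear ribonucleoprotein, rose from 10.7, 10.4 and 11.2 FPKM to 16.4, 16.0 and 16.6 (0.56, SE 0.0409, adjusted p = 3.2e-05). DHX9, a nuclear helicase that also unwinds RNA and DNA hybrids, had the highest FPKM of the 21 members with values: 40.1, 38.6 and 35.9 FPKM in controls and 49.4, 53.7 and 51.3 after knockdown (0.42, SE 0.0524, adjusted p = 0.000308). Smaller rises were seen for DDX41 (17.5 to 20.5 FPKM on means, adjusted p = 0.00806) and for DDX17, a coregulator of splicing and transcription (26.9 to 31.1, adjusted p = 0.00439).

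DHX38, which remodels the spliceosome before the second step of splicing, fell. Its controls were at 10.8, 10.7 and 11.1 FPKM and its knockdown libraries at 9.85, 8.99 and 9.39, with no overlap (-0.19, SE 0.0443, adjusted p = 0.00683). The call was lost when each library was centred on its median (adjusted p = 0.126), and the authors' deposited table gives a q-value of 0.676 for this gene. Reads from DHX38 and from TXNL4B, whose gene spans overlap, cannot be told apart without strand. DDX46, which acts when the U2 small nuclear ribonucleoprotein joins the branch site, stood at 5.26, 5.12 and 4.06 FPKM in controls and 4.15, 4.72 and 4.18 after knockdown and was not called (adjusted p = 0.279). Control library 3 (4.06) lay below every knockdown library. Without control library 3 the limma adjusted p was 0.0145.

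Of the 9 ribosome assembly helicases with values, 6 rose, none fell and 3 were not called. DHX37, needed for the small ribosomal subunit, had 5.41, 5.13 and 6.24 FPKM in controls and 11.6, 10.2 and 10.9 after knockdown (0.86, SE 0.0721, adjusted p = 5.31e-05). DDX49 had 14.4, 14.3 and 16.5 FPKM in controls and 25, 24.4 and 26.4 after knockdown (0.71, SE 0.0609, adjusted p = 5.69e-05). For both genes the lowest knockdown library was well above the highest control. DDX56, a nucleolar helicase of large subunit assembly, rose from 24.2, 23.8 and 27.5 to 38.1, 35.4 and 35.8 FPKM (0.52, SE 0.0601, adjusted p = 0.000216). DDX51, at a low level, rose from 1.67, 1.61 and 1.68 to 2.49, 2.63 and 2.55 FPKM (0.42, SE 0.0478, adjusted p = 0.000191). DDX31 rose from 4.37, 4.26 and 3.89 to 5.34, 5.36 and 5.15 FPKM (0.28, SE 0.0502, adjusted p = 0.00180).

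DDX27 was near the threshold (6.32 to 6.96 FPKM on means, adjusted p = 0.0449) and lost its call with any 1 of 5 libraries left out (adjusted p 0.0695 to 0.141). The 3 ribosome assembly genes not called were DDX54 (11.2 to 12.3 FPKM, adjusted p = 0.0725), DDX52 (4.82 to 5.10, adjusted p = 0.286) and DDX24 (22.1 to 21.6, adjusted p = 0.456). The q-values in the authors' deposited table were 0.00905 for DDX54, 0.0268 for DDX52 and 0.237 for DDX24. With median-centring, limma called DDX54 (adjusted p = 0.0133) and DDX52 (adjusted p = 0.0221) higher. The 95% interval of the DDX24 change ran from -0.11 to 0.05. Spans of DDX54 and CFAP73, of DDX24 and OTUB2, and of DHX9 and its antisense gene overlap, so their reads may be shared where strand was not used.

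Both mRNA translation and decay helicases with values rose. DHX34, which promotes nonsense-mediated decay, was at 5.94, 6.86 and 7.32 FPKM in controls and 11.5, 11.2 and 11.6 after knockdown (0.69, SE 0.0667, adjusted p = 9.01e-05). DDX6, the helicase of processing bodies, was at 17.7, 17.9 and 15.7 FPKM in controls and 18.6, 19.4 and 19.0 after knockdown (0.15, SE 0.0546, adjusted p = 0.0468). The groups of DDX6 did not overlap, but its call was lost with any 1 of 5 libraries left out (adjusted p 0.0559 to 0.125), control library 3 among them (change 0.09).

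The remaining 3 genes were single representatives of their roles. DDX58, the cytosolic sensor RIG-I of viral RNA, had the largest fall: 1.86, 1.85 and 1.59 FPKM in controls and 1.0, 1.17 and 0.972 after knockdown (-0.43, SE 0.0660, adjusted p = 0.000799). These levels are close to the added 1 FPKM, which understates the fold (1.69-fold on means). DHX30, which works on mitochondrial RNA and ribosomes, rose from 10.8 ± 0.390 to 13.0 ± 0.440 FPKM (SD, n = 3, adjusted p = 0.00185). DDX11, a DNA helicase of sister chromatid cohesion, rose from 6.16 ± 0.194 to 7.63 ± 0.376 FPKM (SD, n = 3, adjusted p = 0.00183); it has near-identical copies, among them DDX12P, so its reads may be shared.

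**Figure D2:**
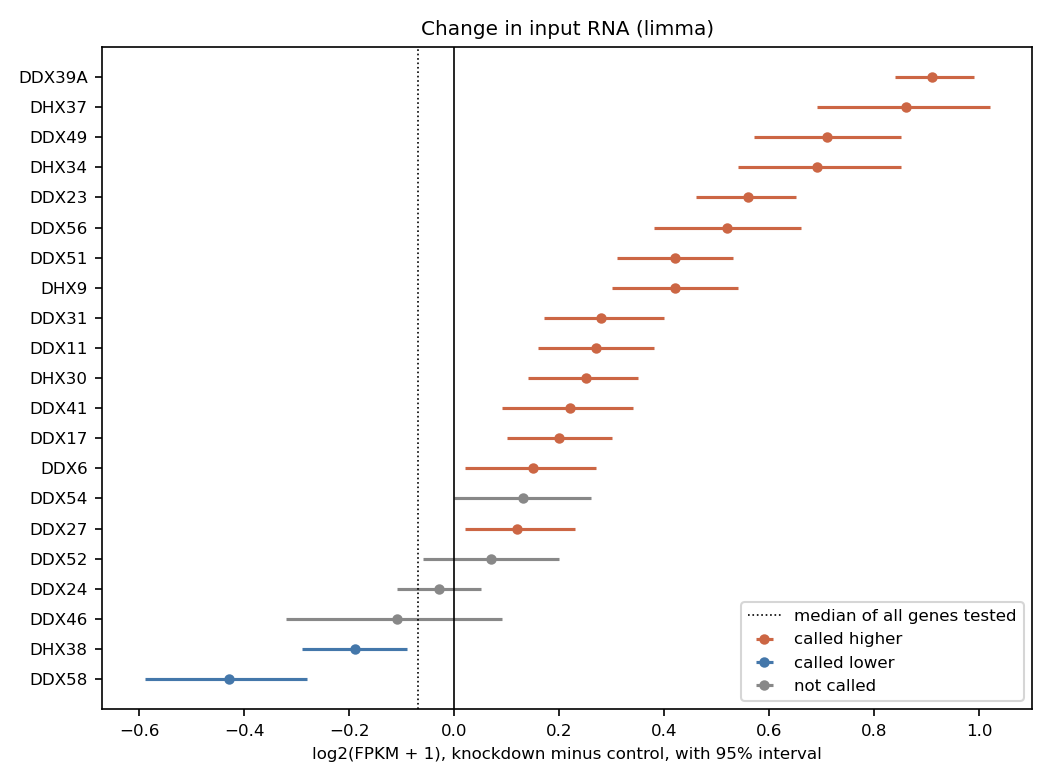
Change in input RNA as log2(FPKM + 1), knockdown minus control, with 95% intervals from limma, for 21 helicase genes; the dotted line is the median of all 4515 genes tested. DDX39A (0.91) and DHX37 (0.86) are at the top, DHX38 (-0.19) and DDX58 (-0.43) at the bottom.

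Promoter sequence is shown for the 4 members with the largest rises on the log2 scale among those with an entry, and for DDX58, the member with the largest fall, to let the start regions of genes that moved be read side by side. All 48 members matched RefSeq (GRCh38.p14) by name, DDX58 through its RefSeq symbol RIGI, and 43 had an entry in its table of promoter sequences. DDX18, DDX49, DDX52, DHX33 and DHX58 had none there. Each line holds the 150 bases just before the annotated start, 5′ to 3′ on the gene's strand: DDX39A at chr19:14419384-14419533 (minus), DHX37 at chr12:124989132-124989281 (minus), DHX34 at chr19:47349165-47349314 (plus), DDX23 at chr12:48852164-48852313 (minus) and DDX58 at chr9:32526197-32526346 (minus). Capitals mark 4 motifs searched on both strands, and no match overlaps another: the CCAAT box (CCAAT), the GC box (GGGCGG), the E-box (CACGTG) and the TATA box (TATAAA).
DDX39A: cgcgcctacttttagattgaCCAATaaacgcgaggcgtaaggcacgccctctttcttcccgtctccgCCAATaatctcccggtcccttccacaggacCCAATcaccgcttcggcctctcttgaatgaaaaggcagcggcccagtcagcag
DHX37: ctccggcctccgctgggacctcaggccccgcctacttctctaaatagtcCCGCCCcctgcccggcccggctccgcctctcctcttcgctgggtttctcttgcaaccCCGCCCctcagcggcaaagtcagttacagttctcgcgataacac
DHX34: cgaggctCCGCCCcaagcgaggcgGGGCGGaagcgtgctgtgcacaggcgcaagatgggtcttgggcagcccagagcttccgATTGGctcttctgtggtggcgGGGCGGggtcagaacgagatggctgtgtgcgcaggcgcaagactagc
DDX23: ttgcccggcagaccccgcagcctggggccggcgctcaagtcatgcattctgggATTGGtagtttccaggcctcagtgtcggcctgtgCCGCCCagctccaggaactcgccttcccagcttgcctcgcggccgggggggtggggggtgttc
DDX58: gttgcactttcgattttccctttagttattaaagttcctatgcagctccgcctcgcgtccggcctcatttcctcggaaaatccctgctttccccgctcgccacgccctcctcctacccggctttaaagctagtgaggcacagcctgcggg
DDX39A holds 3 CCAAT boxes and DHX37 2 GC boxes, DHX34 has 1 CCAAT and 3 GC boxes, DDX23 has 1 of each, and DDX58 has none of the 4 motifs. In windows of this length CCAAT stood in 15 of 43 members (34.9%) and in 24.4% of 27305 promoters, 1 per gene. GGGCGG stood in 19 members (44.2%) and 36.7% of all, CACGTG in 5 (11.6%) and 4.68%, and TATAAA in 0 members and 7.05% of all. A match is only a match of letters, and no match says nothing about a factor.

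The differential peaks of the helicases were more often listed higher than lower after knockdown. In the authors' deposited table, 21 of 48 members (43.8%) had a differential peak, beside 33.1% of all labelled genes. Both shares are by label: DHX9 and DDX46 count among the 21 through peaks that lie on other genes. All labelled genes also include non-coding ones. The table has 27 such peaks on members, of which 18 (66.7%) were listed higher and 9 lower; over all 8687 peaks with a gene name, 55.4% were higher. The median m6A log2 was 0.533 on members and 0.281 on all peaks of the authors' deposited table. Its changes, turned here to knockdown over control, come with 1 p per peak and no value per library, so they have no replicate check.

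By label, 13 members had only higher peaks, 7 only lower peaks and DHX38 had both. Ribosome assembly helicases had 9 higher and 2 lower peaks, and splicing helicases 5 and 5. Of the 5 lower splicing peaks, 2 lie on other genes, as given below. They are the only differential peaks labelled DHX9 and DDX46, so the 7 genes with only lower peaks include these 2 labels. The 2 export, translation and decay genes with such peaks, DDX6 and DHX34, had 1 lower peak each, and the DNA helicase DDX11 had 2 higher ones.

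The highest listed change was in DDX52, a nucleolar helicase of small subunit assembly: 1.79 (3.46-fold, adjusted p = 3.09e-06, authors' deposited table) over exon 2 of 15, at chr17:37642113-37642263. DDX39A followed with 1.41 (2.66-fold, adjusted p = 4.57e-06, authors' deposited table) in its 3′ UTR, at chr19:14410143-14410233. Neither of these peaks overlapped a peak of either list. The 3′ UTR peak of DHX38 at chr16:72110979-72112912 was higher by 1.29 (adjusted p = 7.94e-24, authors' deposited table), with enrichment of 8.43 in the control and 15 in the knockdown list. That stretch, matched without strand, overlapped 2 peaks in each list, and not all of them carry the DHX38 label. The enrichments are those of the peaks sharing most bases, so the change may not be that of DHX38 alone.

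The next members had their change in exons outside the UTRs. DDX27 had 1.26 (adjusted p = 5.01e-10, authors' deposited table) over exon 16 of 21, where the lists gave 2.05-fold enrichment in control and 5.96-fold in knockdown. That stretch too overlapped 2 peaks in each list, not all of them labelled DDX27. DDX23 had 1.24 (adjusted p = 6.03e-08, authors' deposited table) over exon 7 of 17, with enrichment of 1.70 and 3.84. DHX37 had 0.963 over exon 12 of 27 (adjusted p = 3.98e-14, authors' deposited table) with enrichment of 2.01 and 4.38, and 0.628 near its start. All 6 member peaks that the authors' deposited table places in exons outside the UTRs, on DDX23, DDX27, DDX52, DDX54 and DHX37, were listed higher, beside 54.2% of all 2713 peaks in such exons; whether the members differ from the rest was not tested.

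DDX11 had 1.23 in a 3′ UTR of a nonsense-mediated decay transcript (adjusted p = 9.12e-10, authors' deposited table), and 0.533 in its coding transcript's 3′ UTR. DDX51 had 0.961 in its 3′ UTR (adjusted p = 1e-22, authors' deposited table), with enrichment of 9.21 in control and 13.9 in knockdown. DDX58, whose RNA fell, had 0.725 in its 3′ UTR (adjusted p = 0.0049, authors' deposited table), with enrichment of 4.34 and 10.7.

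Of the lower peaks, 2 did not lie on the gene whose label they carry. The lowest, -1.03 under DHX9 at chr1:182829635-182829994 (adjusted p = 2.63e-06, authors' deposited table), lies on the gene model of NPL. The one under DDX46, -0.618 at chr5:134750849-134751027 (authors' deposited table), lies on CAMLG. Without these 2 peaks, 6 rather than 8 genes had a lower peak.

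On their own models, DDX17 had 2 lower 3′ UTR peaks, -0.842 at chr22:38483438-38483977 (adjusted p = 2e-70) and -0.441 (adjusted p = 5.01e-57), in the authors' deposited table. The first was a 5.0-fold peak in the control list with no overlapping peak in the knockdown list; the gene's span overlaps that of KDELR3. DHX34 had -0.775 in a 3′ UTR (adjusted p = 8.91e-05, authors' deposited table), while its strongest 3′ UTR peak was at 16.1-fold in control and 15.4-fold in knockdown. DDX6 had -0.6 in its 5′ UTR (adjusted p = 7.94e-35, authors' deposited table), where the lists gave 22.3 and 20. In the authors' deposited table DHX38 had -0.498 in its 5′ UTR, at a 1.89-fold control peak with no knockdown peak. DDX56 had -0.181 in its 3′ UTR (authors' deposited table), with enrichment of 8.35 and 6.32. DDX31 had -0.234 in its 5′ UTR (authors' deposited table), where the lists gave 6.89 in control and 7.07 in knockdown, the opposite order.

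Setting the 2 measures side by side, 12 of the 18 higher peaks were on 9 genes whose RNA rose, 2 on genes whose RNA fell (DHX38, DDX58) and 4 on 3 genes not called. Of the 9 lower peaks, 6 were on the models of 5 genes whose RNA rose and 1 was on DHX38; the other 2 carry the labels DHX9 and DDX46 but lie on NPL and CAMLG, so the RNA of the labelled gene is not that of the peak. RNA rose for 15 of the 21 members (71.4%) whichever way their peaks went, and these joint counts were not taken over all differential peaks. Enrichment is measured over input, and the share of an m6A change that goes with the RNA change was not tested.

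**Figure D3:**
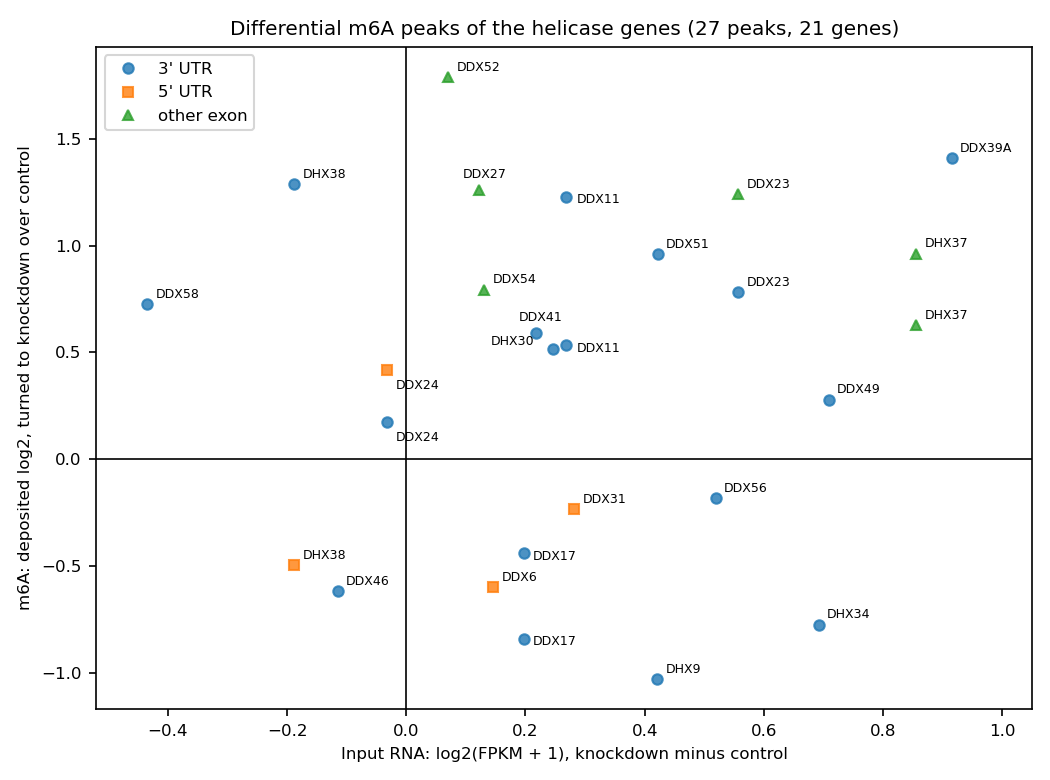
Each point is 1 differential m6A peak: change in the gene's input RNA (horizontal, log2(FPKM + 1)) against the m6A change of the authors' deposited table (vertical, log2, turned to knockdown over control), marked by region. The upper right quadrant holds the most points, 12 of them on genes whose RNA rose, while all 3 peaks at -0.775 or below lie right of 0, among them the peak that carries the DHX9 label but lies on NPL. RNA rose for 15 of the 21 genes, whichever way their peaks went.

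The peak lists, 1 per condition, held 110 member peaks in control cells and 80 in knockdown cells, of 39492 and 28891 in all. Of the control member peaks, 67.3% (95% exact interval 57.7 to 75.9) shared at least 1 base with a knockdown peak, beside 57.9% of all control peaks. Of the knockdown member peaks, 95% (87.7 to 98.6) overlapped a control peak, beside 88.8% of all. The 36 control member peaks without a partner had a median enrichment of 2.59-fold and the 74 with one 4.39-fold. These intervals cover counting error only.

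Member peaks lay in 3′ UTRs for 55.5% in control and 52.5% in knockdown, in 5′ UTRs for 18.2% and 12.5%, and in other exons for 26.4% and 35.0%. In all peaks these shares were 47.6% and 46.5%, 12.6% and 13.9%, and 39.8% and 39.6%. The labelled transcript was a retained-intron transcript for 46.4% (36.8 to 56.1) of control and 45.0% (33.8 to 56.5) of knockdown member peaks, but for 17.0% and 17.5% of all peaks. Median enrichment was lower than over all peaks: 3.44-fold against 6.11-fold in control, and 4.79-fold against 7.05-fold in knockdown. Peaks of 1 gene share a transcript and are not independent. All peaks also include those labelled with long non-coding RNAs, pseudogenes and microRNAs, which no member peak has as its transcript type. Shares and medians over peaks of protein-coding genes alone were not taken.

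**Figure D4:**
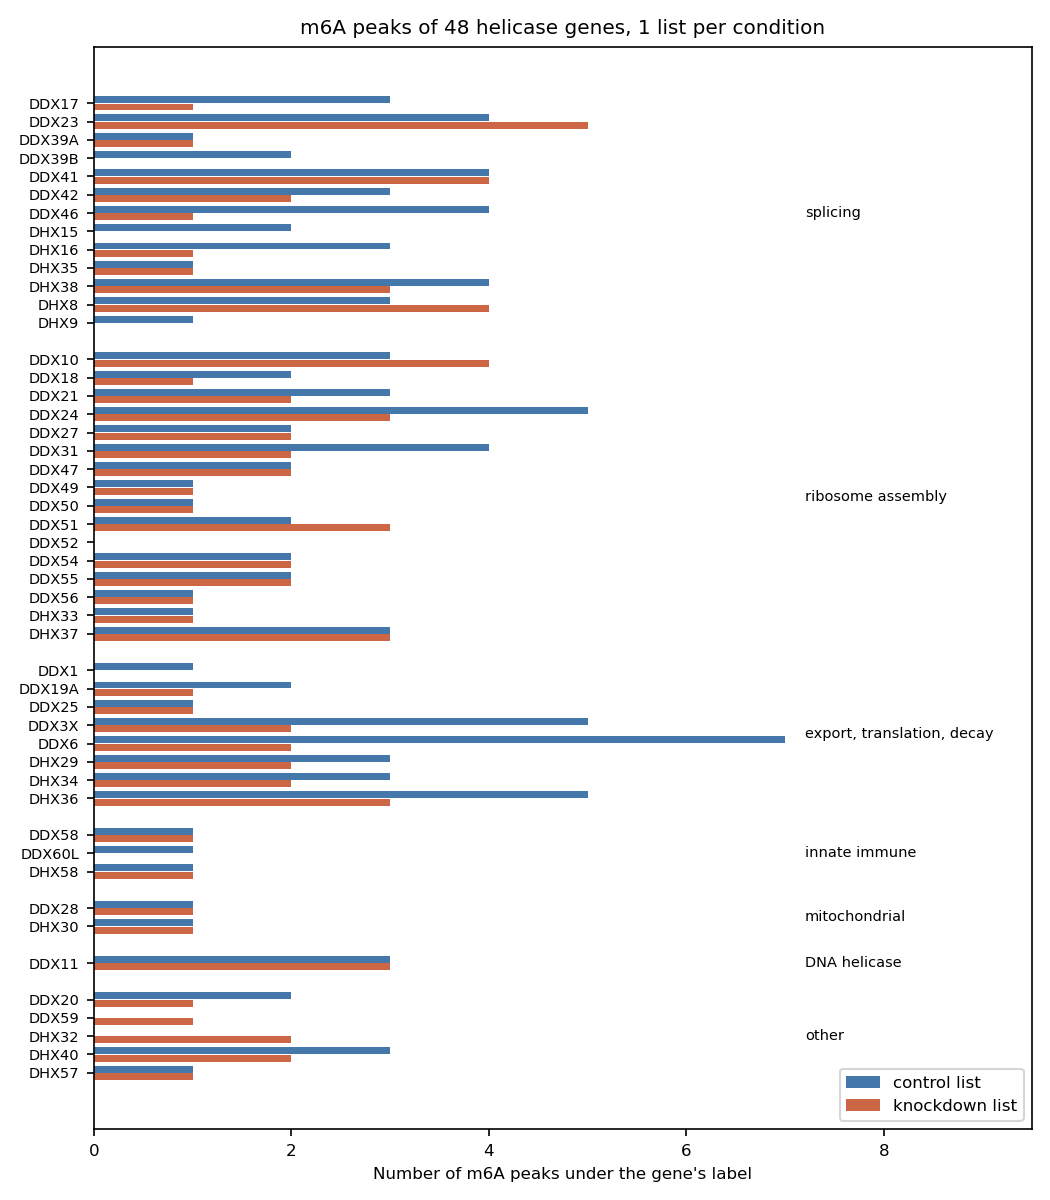
Number of m6A peaks carrying each helicase gene's label in the control list (upper bar) and the knockdown list (lower bar), grouped by role. DDX6 has the most control peaks (7, against 2 in knockdown), and DDX23 the most knockdown peaks (5, against 4 in control).

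Of the members, 40 had a peak in both lists. By label, DDX1, DDX39B, DDX60L, DHX15 and DHX9 had one only in the control list, DDX59 and DHX32 only in the knockdown list, and DDX52 in neither. The label is that of the nearest transcript start, which can split 1 site over names. The 24.7-fold peak of DHX32 in the knockdown list overlaps a 17.1-fold control peak on the same gene model labelled Metazoa_SRP, and the DDX59 peak (3.43-fold) overlaps a 5.71-fold control peak labelled DDX59-AS1. DDX52 carries peaks in both lists under the label MIR378J. These 3 genes thus had a peak in both lists when the gene model is read in place of the label. Conversely, 3 of the 40 lacked a labelled peak on their own model in at least 1 list: those of DDX25 lie on HYLS1 and those of DHX58 on KAT2A in both lists, and that of DDX19A on DDX19B in knockdown. The control peak of DHX9 lies on NPL.

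Enrichment ranked highest in control for DHX36, a helicase that unwinds G-quadruplexes, with 42.8-fold in its 5′ UTR, but this peak had a log10 p of -12.4, against -3780 for the 22.3-fold 5′ UTR peak of DDX6. The DHX36 site was at 22.6-fold in the knockdown list. A 32.3-fold peak labelled DDX20 lies on INKA2, while DDX20, which works with the SMN complex, had 21.6-fold in its own 3′ UTR, and 17.1-fold in knockdown. DDX23 had 19.2-fold in its 3′ UTR in control and 25-fold in knockdown, with log10 p of -4100 and -9040. The 17.9-fold control peak labelled DHX58 lies on KAT2A.

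In the knockdown list the highest member peak was on DDX41, at chr5:177516573-177516782 over exon 2 of a retained-intron transcript. It was 58.2-fold over 210 bases (log10 p of -47.0), beside 3.44-fold over 91 bases (log10 p of -4.78) at the same place in the control list. The authors' deposited table lists a different DDX41 peak as changed, in a 3′ UTR (0.591, adjusted p = 0.00102), and no row for this one. DHX32 (24.7), DDX6 (20) and DDX42, a partner of the U2 particle (17.1 in knockdown, 10.3 in control), were also among the 7 highest.

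DDX6, with 7 control peaks and 2 knockdown peaks, DDX3X and DHX36 with 5 and 2 and 5 and 3, and DDX24 with 5 and 3, had the most control peaks. The 5 DDX6 peaks without a knockdown partner had 1.23 to 2.86-fold enrichment. DDX3X, the X-linked initiation helicase, had 3 5′ UTR peaks in control (3.31, 7.64 and 10.7-fold, with log10 p of -2.49, -1.74 and -2.62) that overlap no knockdown peak, while its 3′ UTR site was at 3.43-fold and 3.37-fold. In DDX24, 3 control peaks of 1.10 to 6.90-fold lie within 1 knockdown peak of 10.2-fold, so the lists divide the same stretch differently.

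**Figure D5:**
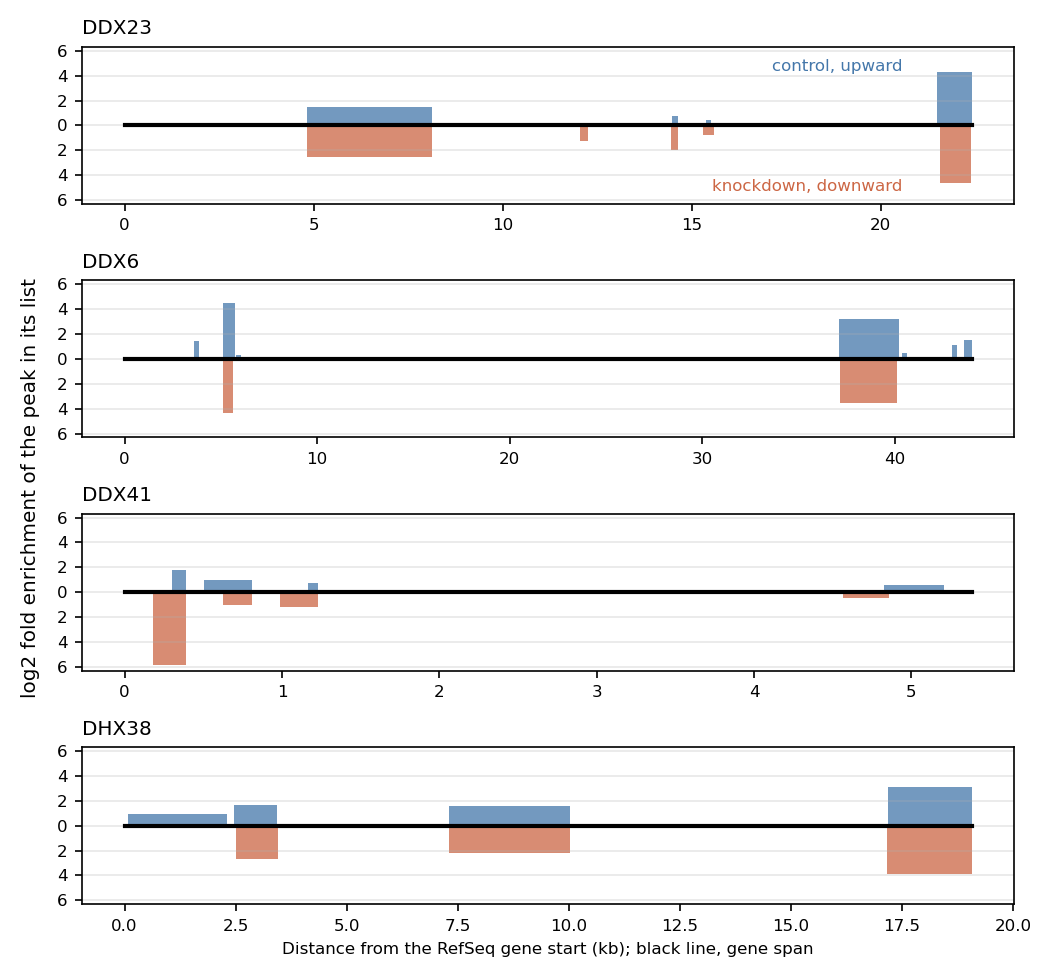
Peaks along 4 helicase genes, as distance from the RefSeq gene start in kb (black line, gene span); bar height is the log2 of the fold enrichment in that list, control upward and knockdown downward, and a bar runs over introns inside a peak. DDX6 and DDX23 have their highest peaks at the same place in both lists, DDX41 has a 58.2-fold knockdown peak where control has 3.44-fold, and DHX38 has no knockdown peak at its start.

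Near-identical or closely related pairs were compared by label. DDX39A had 1 peak in each list and DDX39B 2 in control and 0 in knockdown. The 2 DDX39B peaks overlap, and 1 of them lies on the model of ATP6V1G2-DDX39B, whose span overlaps that of DDX39B. DDX19A had 2 and 1, and 1 peak in each list lies on DDX19B, which has no label of its own here. DDX21, a nucleolar sensor of transcription, had 3 and 2 and its paralog DDX50 1 and 1, and 1 of the DDX21 control peaks lies on DDX50. DDX17 had 3 and 1, and DDX5 has no label, but its model carries a 3.44-fold control and a 2.53-fold knockdown peak labelled MIR3064. DDX60L had 1 control peak of 8.40-fold (log10 p of -14.9). DDX11 had 3 peaks in each list.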

How the data were processed

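Members, role lists and tests were chosen with earlier results of these data known. The FPKM values of the 6 input libraries, the log2 changes, p-values, q-values and peak scores were made and deposited by the authors; per the submitters' processing notes the tools were Bowtie 0.12.2, HISAT2 2.0 and StringTie 1.3.0, and the notes name the build mm8, although gene identifiers and positions match human GRCh38. The caller of the peaks is not given in the sources used here. Each peak's fold enrichment is a ratio given by the authors, and its log10 p is theirs too. The deposited log2 values, control over knockdown, were turned round here; deposited starts, counted from 0, are printed plus 1.

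The 4515 genes averaging 1 FPKM or more were tested with limma 3.58.1 in R 4.3.3, with a trend, on log2(FPKM + 1), two-sided, with Benjamini-Hochberg adjustment at 0.05, and the fit was tested on simulated data. Peaks were compared with bedtools 2.31.1 on exonic blocks (1 base). Read depth is unknown. Named by rule were the 10 called members with the largest change and no overlap, 2 per role by p, the 8 largest m6A changes each way, the 6 highest peaks of each list and the 4 genes with most peaks. Alternatives were another pseudocount, filter, scaling, the replicate block, leaving out each library, and stricter peak cuts. 283 differential peaks without a gene name were not used.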

Additional observations from a re-analysis of the deposited data

How the results depend on the processing

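The count of members whose RNA rose was 15 and ran from 13 to 17 over the alternatives run, and that of members whose RNA fell was 2 and ran from 1 to 3: leaving out 1 library gave 13 to 15 and 2 to 3. Only 1 member fell with a minimum of 5 FPKM (which removes DDX58), with median-centring, and when the q-values deposited by the authors were read. With the replicate block 14 rose and 2 fell, DDX27 losing its call (limma adjusted p = 0.0790). Deviations of same-numbered libraries correlated by -0.0769, 0.0278 and 0.0247, and those of other pairs by -0.176 to 0.189. With so few libraries this cannot tell whether the numbers pair the samples, and the labels do not say. Of 268 alternative values of single genes, 1 changed sign: DDX24, to 0.061 with median-centring. A further 15 lost the call of the main fit and 7 gained one. Among the losses was DDX6, with quantile normalization (limma adjusted p = 0.123) and with no filter on low values (limma adjusted p = 0.0738). Requiring a log2 of 1 left 6 genes with a higher and 1 with a lower peak; the latter is the DHX9-labelled peak on NPL, so 0 lower peaks on a member's own model passed. A fold of at least 4 left 46 control and 47 knockdown member peaks, with 84.8% of the control ones shared and 5 genes in the knockdown list alone; 50% reciprocal overlap gave 50.9% and 68.8%, and an adjusted p of 1e-05 gave 76.7% and 98.6%. The causes were not tested. An added alternative, chosen after seeing the data, left out peaks on another gene's model: 14 genes had higher and 6 lower peaks. Read depth is not in the files, so the counting error of low peaks and low FPKM could not be estimated.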

Other observations

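Some m6A peaks lie on DDX and DHX gene models but carry another label: 17 in the control and 15 in the knockdown list. DHX33, a helicase of ribosomal RNA transcription, carried a 3′ UTR peak labelled C1QBP at 31.1-fold in control and 23.4-fold in knockdown, above its highest labelled peak (4.91 and 5.04). DDX46 carried one labelled C5orf24 (10.9 and 7.96), DDX54 one labelled MIR7106 (8.53 and 6.70), DDX10 one labelled AP002453 (9.92 and 13.0), and DHX57 one labelled AC018693 (10.4 in both).

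Related helicases with other names had a label for 16 genes, with a peak in control for 16 and in knockdown for 14. Of the 7 with FPKM values 2 rose, 2 fell and 3 were not called by limma, where 24.5% of all genes tested rose and 37.9% fell. SNRNP200, the Brr2 helicase that opens the U4 and U6 pair, rose from 41.7 to 52.4 FPKM on means (adjusted p = 0.000143), and ZNFX1 from 6.83 to 9.39 (adjusted p = 0.000143). FANCM, which remodels stalled replication forks, fell from 1.79 to 1.10 (adjusted p = 0.00317), and HELZ2 from 3.95 to 3.36 (adjusted p = 0.0204).

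Of 40 partners of these helicases, 18 had FPKM values: 11 rose, 2 fell and 5 were not called, beside the same shares over all genes. The scaffold EIF4G1 rose from 46.9 to 74.8 FPKM on means (limma adjusted p = 1.58e-05), ALYREF, an export adaptor, from 11.4 to 17.6 (adjusted p = 0.000113), and GEMIN4, a partner of DDX20, from 17.0 to 23.1 (adjusted p = 8.86e-05).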
